A study of Mus musculus with 12 samples.

Results

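The cytosolic heat shock and folding chaperones are a set of 43 genes listed by function: Hsp70 and Hsp110 chaperones, Hsp90, small heat shock proteins, J-domain and BAG co-chaperones, subunits of the chaperonin TRiC, heat shock factors, and the collagen chaperone Serpinh1. The set was chosen with earlier results of these data known. Of the 43, 40 had a probeset assigned to that gene alone and all 40 were tested, among 22180 genes on the array and 13308 tested. Hsp90ab1 and Hsf1, which had no such probeset, and Dnaja1, whose probeset is also assigned to Mir207, were not analysed here. Hspa1a passed the filter on dim genes only through its exercised groups, since both of its sedentary means lay under the threshold (log2 5.32), so its values at rest are dim and its differences from rest are given as descriptions. Hspa1a and Hspa1b are near-identical copies, and how far their probesets report each other's transcripts was not tested.

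Transcripts were measured with Affymetrix Mouse Gene 2.0 ST arrays in gastrocnemius, a calf muscle of mostly fast fibres, from FVB mice labelled male and aged 2 to 3 months. The 12 arrays formed 4 groups of 3, wild-type and ERRa-null mice that were either sedentary or sampled 2 h after exhaustive running on a treadmill. ERRa, the product of Esrra, is a nuclear receptor without a known natural ligand and a regulator of mitochondrial genes; the labels do not say how the null allele was made. The comparisons ask which chaperone transcripts differ after running in each genotype, which differ between genotypes at rest and after running, and whether the difference after running depends on genotype.

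Heat shock chaperones bind unfolded or partly folded proteins. Hsp70 works in cycles set by J-domain proteins, which bring substrates and stimulate its ATPase, and by BAG and Hsp110 proteins, which release the nucleotide. Hsp90 receives clients from Hsp70 through linker co-chaperones, small heat shock proteins hold unfolded clients without ATP, and TRiC folds actin and tubulin. In stressed cells the transcription factor Hsf1 binds heat shock elements, inverted repeats of GAA units, in the promoters of many of these genes, and contracting muscle is a known site of such induction.

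Esrra lay between 7.41 and 7.63 (log2) on the wild-type arrays and between 6.55 and 6.89 on the ERRa-null arrays, so the genotypes did not overlap. One label, the source name, gives the opposite exercise state for the sedentary ERRa-null and exercised wild-type arrays. Groups follow the titles, with which the descriptions agree, and the exercise state of these arrays rests on those labels. The mean of 9 muscle fibre markers lay between 12.85 and 13.02 on all arrays. For 7 slow fibre markers the mean ran from 8.87 to 9.54 on sedentary wild-type and from 9.41 to 9.97 on sedentary ERRa-null arrays. After running it ran from 9.05 to 9.76 in wild type and from 9.34 to 9.70 in ERRa-null muscle. Although all mice are labelled male, Xist, the RNA that coats the silenced X in females, ran from 7.82 to 7.90 on 3 exercised arrays, wild type replicate 3 and ERRa-null replicates 2 and 3. Elsewhere it ran from 3.66 to 4.30. The mean of 8 liver markers ran from 5.54 to 10.09 on sedentary and from 5.71 to 7.75 on exercised arrays, that of 6 measured adipocyte markers of 7 from 6.57 to 9.79 and from 6.94 to 7.80, and that of 5 measured B lymphocyte markers of 6 from 5.88 to 8.34 and from 5.53 to 6.39. Seminal vesicle markers reached a mean of 12.43 on sedentary ERRa-null replicate 1 and at most 3.92 elsewhere. In such bulk samples fewer cells of a type and less RNA per cell cannot be told apart.

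Promoter letters are shown first for Hspa1b, Hspa1a and Hspb1, the members with the largest exercise differences averaged over genotypes (3.66, 3.20 and 1.29 log2), because the heat shock element is the sequence through which this family is known to be induced. The sequences are from RefSeq, build GRCm38.p6, printed 5′ to 3′ on the strand of the gene. They are the 250 bases before the annotated start of Hspa1a, Hspa1b and Hspb1, and capitals mark a short element, GAANNTTC or TTCNNGAA.
Hspa1a, chr17:34972157-34972406, minus strand: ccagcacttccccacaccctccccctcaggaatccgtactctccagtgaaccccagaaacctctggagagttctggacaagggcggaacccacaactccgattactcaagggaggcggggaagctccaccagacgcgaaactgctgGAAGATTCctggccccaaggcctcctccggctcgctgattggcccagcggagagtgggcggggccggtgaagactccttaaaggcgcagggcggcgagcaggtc
Hspa1b, chr17:34959239-34959488, minus strand: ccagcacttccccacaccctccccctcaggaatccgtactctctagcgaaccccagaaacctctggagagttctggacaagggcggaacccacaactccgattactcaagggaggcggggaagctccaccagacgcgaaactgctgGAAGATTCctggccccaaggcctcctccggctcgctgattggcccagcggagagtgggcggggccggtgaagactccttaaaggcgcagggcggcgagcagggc
Hspb1, chr5:135887669-135887918, plus strand: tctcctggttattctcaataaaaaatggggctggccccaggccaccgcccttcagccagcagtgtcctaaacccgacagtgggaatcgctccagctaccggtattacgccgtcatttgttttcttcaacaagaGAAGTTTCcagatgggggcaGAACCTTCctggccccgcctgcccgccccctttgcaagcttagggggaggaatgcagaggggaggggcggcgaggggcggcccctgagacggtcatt
Hspa1a and Hspa1b were identical at 247 of these 250 bases (98.8%), and both carried GAAGATTC from position −104 to −97 before the start. Shorter stretches around matches are shown for other members, with capitals on every base of a match. Hsph1, Chordc1 and Dnajb6 hold the long element, GAANNTTCNNGAA or TTCNNGAANNTTC, which contains the short one, and Dnajb4, Hspb8 and Bag3 hold the short one.
Hsph1, chr5:149636287-149636303, minus strand: agaTTCTGGAAAGTTCt
Chordc1, chr9:18292260-18292288, plus strand: ccgGAACGTTCGGGAAAATTCCTGAAgca
Dnajb6, chr5:29735849-29735867, plus strand: cgaGAATCTTCCGGAAcgc
Dnajb4, chr3:152193849-152193862, minus strand: ctgTTCTAGAAagt
Hspb8, chr5:116422852-116422865, minus strand: ggaGAAGTTTCtag
Bag3, chr7:128523622-128523632, plus strand: ccaGAAGTTTC

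**Figure D1:**
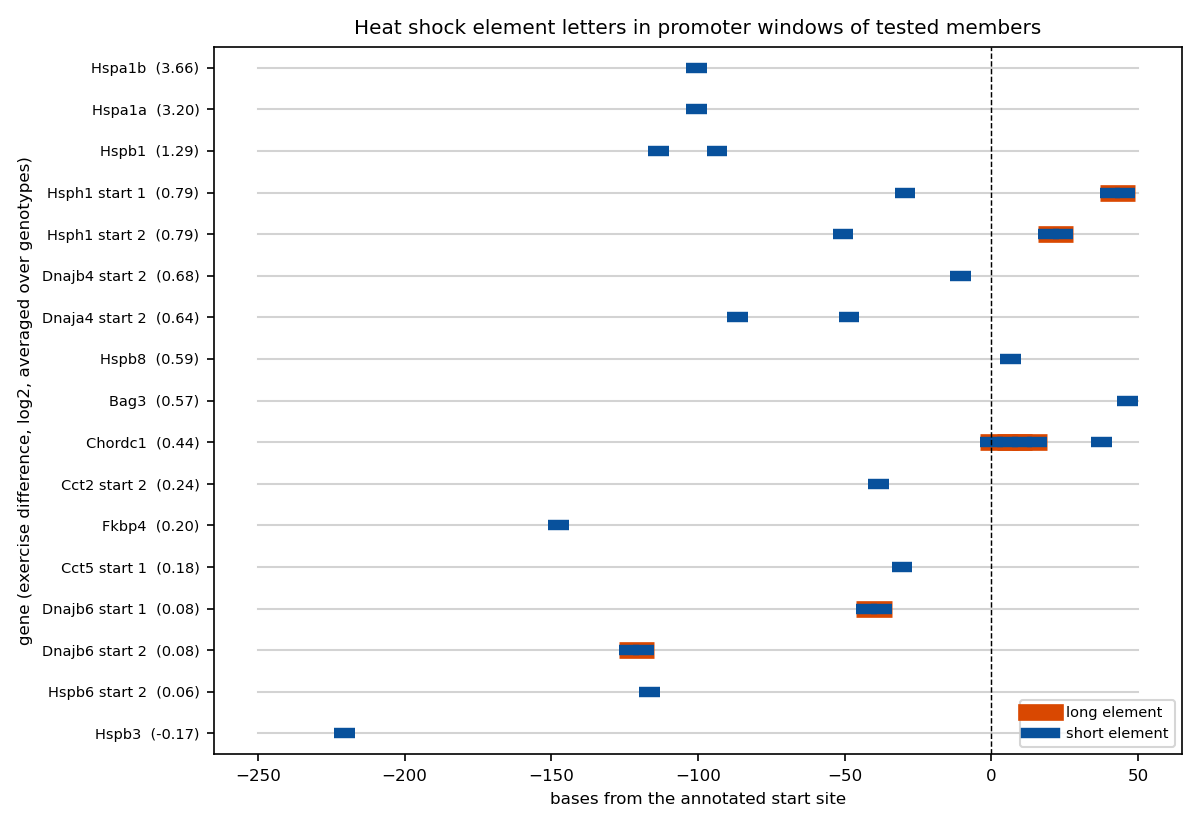
Positions of element letters in promoter windows of tested members, in bases from the annotated start on the horizontal axis; each line is the window of a start site, with the exercise difference averaged over genotypes (log2) after the name. Orange marks the long element and blue the short one, and Hspa1a and Hspa1b show a short element at the same place.

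On both strands of the windows, 300 bases from 250 before to 50 after each annotated start, the long element was found in 198 of 32851 windows (0.603%). It was found in 0.662% of all genes and in 3 of the 36 members with a window. The short element, which every long one contains, was found in 4946 windows (15.1%), in 17% of all genes and in 16 of the 36 members. Of 20 members with a window that rose in wild type or averaged over genotypes, 11 held the short element, and of 15 tested members that did not rise, 4 did. The long element was held by 2 of the 20 and 1 of the 15. Hspa8, Hsp90aa1 and Cryab also rose but had no window. Dnajb6, which held the long element, did not pass in any comparison of exercise (averaged difference 0.08 ± 0.07). These matches describe letters only.

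Running was followed by higher transcripts of many listed chaperones in wild-type muscle, led by the stress-inducible Hsp70 genes. Of 40 tested members 19 rose and 0 fell, against 2.22% of all tested genes called higher and 1.21% called lower. Without Hspa1a the counts were 18 and 0 of 39. The list was chosen with earlier results of these data known, so its excess over all tested genes is a description, not a test. Of 37 tested cytosolic chaperones outside the list, 1 rose and 1 fell. The median difference of the members was 0.35 log2, or 0.34 without Hspa1a, against −0.01 over all tested genes. On every array 28 members lay above all sedentary arrays and 2, Hspa2 and Hspb3, lay below, against 10% and 11% of tested genes (21% together). Values after ± are standard errors of the limma model over all 12 arrays, and adjusted p-values are limma's after Benjamini-Hochberg adjustment over all tested genes.

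Of 9 Hsp70 and Hsp110 genes, 6 rose. Hspa1b, a stress-inducible Hsp70, read 6.53, 6.63 and 6.55 (log2) on the sedentary wild-type arrays and 11.21, 10.83 and 11.05 after running. Its near-copy Hspa1a read 4.33, 4.11 and 4.11, then 8.51, 8.03 and 8.23. Groups were far apart for both genes, and Hspa1b rose by 4.46 ± 0.30 (22.0-fold, adjusted p = 1.08e-05). The difference of Hspa1a was 4.07 ± 0.21 from a sedentary level under the dim threshold, so no fold is given; with no filter on dim genes it was tested in any case, with adjusted p = 1.05e-06. Hspa8, the constitutive Hsp70 of the cytosol, read 11.58, 11.71 and 11.69 at rest and 12.23, 12.15 and 12.10 after running, a rise of 0.50 ± 0.06 (adjusted p = 0.000343). Hsph1, an Hsp110 that releases nucleotide from Hsp70, read 8.32, 8.41 and 8.21, then 9.31, 9.58 and 9.17, without overlap, and rose by 1.04 ± 0.13 (adjusted p = 0.000629). The other Hsp110 relatives Hspa4l and Hspa4 rose by 0.57 ± 0.12 and 0.36 ± 0.07. Hspa1l, Hspa12a and Hspa2 did not pass, with differences of 0.11, 0.11 and −0.30.

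Hsp90aa1, the stress-inducible cytosolic Hsp90, read 6.99, 7.47 and 7.23 at rest and 8.74, 8.81 and 8.54 after running. All exercised arrays lay above all sedentary ones, and it rose by 1.46 ± 0.14 (adjusted p = 0.00011). Unc45b, a chaperone of muscle myosin, differed by 0.22 ± 0.08 (adjusted p = 0.153).

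Of 6 small heat shock proteins, 3 rose. Hspb1 (Hsp27), which binds unfolding proteins and actin filaments, read 8.20, 8.47 and 8.22 at rest and 9.74, 9.68 and 9.73 after running, the exercised arrays lying close together and all higher, and rose by 1.42 ± 0.12 (adjusted p = 7.24e-05). Hspb8, the partner of Bag3, rose by 0.70 ± 0.16, and Cryab, which binds desmin and titin, by 0.51 ± 0.07. Hspb7 differed by 0.34, Hspb6 by 0.04 and Hspb3 by −0.26, none passing. For Hspb1 and Cryab the further probesets of the same gene had exercise differences of 0.72 and 0.74 in wild type, and the 3 others of Hspa8 of 0.60 to 0.63. The further Hspb1 probeset had a mean of 5.23 (log2) over the 12 arrays, under the dim threshold.

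Among 6 tested J-domain genes, 3 rose. Dnajb1, the main Hsp40 partner of inducible Hsp70, read 6.28, 6.34 and 6.34 at rest and 7.97, 7.04 and 7.51 after running. Its exercised arrays were spread by nearly a log2 unit but all lay above rest, and it rose by 1.19 ± 0.20 (adjusted p = 0.0059). Dnajb4 rose by 0.91 ± 0.15 and Dnaja4 by 0.69 ± 0.13, while Dnajb2 (0.45), Dnajb5 (0.08) and Dnajb6 (0.16) did not pass.

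Of 8 BAG proteins and co-chaperones, 4 rose. Bag3, which links Hsp70 to autophagy of damaged muscle proteins, read 10.03, 10.00 and 9.93 at rest and 10.61, 10.67 and 10.72 after running, with no overlap, and rose by 0.68 ± 0.07 (adjusted p = 0.000139). Chordc1, an Hsp90-binding protein, rose by 0.49 ± 0.10, Stip1, which links Hsp70 to Hsp90, by 0.47 ± 0.11, and Ahsa1, which stimulates the Hsp90 ATPase, by 0.38 ± 0.09. Cacybp, Fkbp4, St13 and Bag1 differed by 0.25, 0.21, 0.17 and 0.04 and did not pass. Serpinh1, the collagen chaperone of the endoplasmic reticulum, read 8.06, 8.11 and 7.62, then 8.86, 8.73 and 8.53, and rose by 0.78 ± 0.13 (adjusted p = 0.00766). Of 7 chaperonin subunits, Cct2 alone passed, at 0.36 ± 0.08, and the others differed by 0.10 to 0.28. Hsf2, a heat shock factor, differed by 0.18 ± 0.12.

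**Figure D2:**
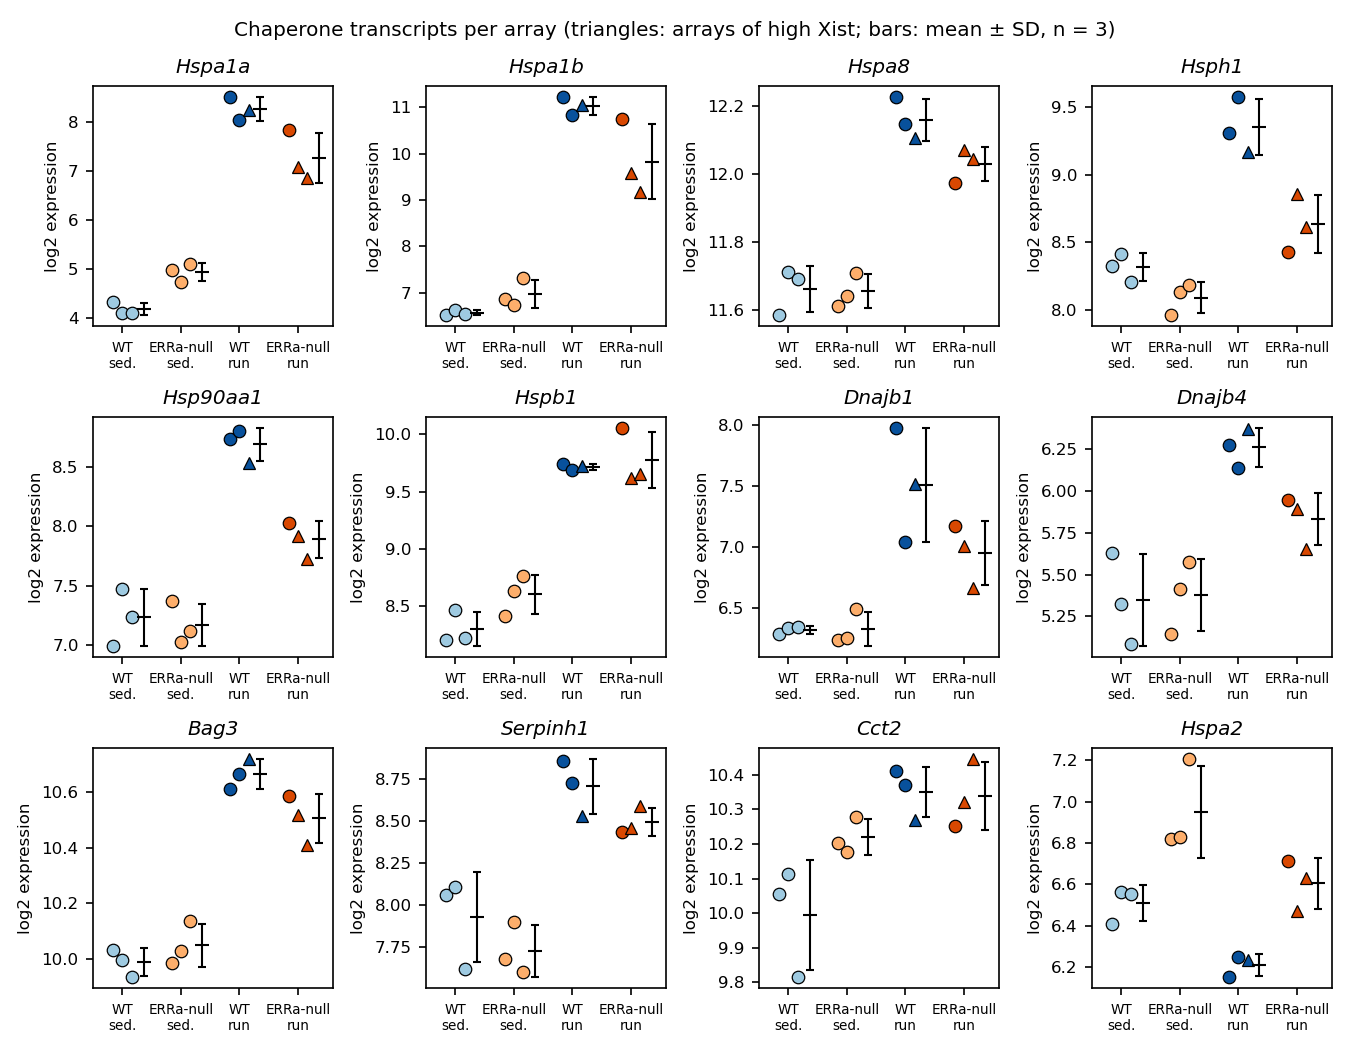
Log2 expression of 12 members on each array (vertical axis, a separate scale in each panel), by group on the horizontal axis; points are arrays, triangles the 3 arrays of high Xist, and bars the mean ± SD (n = 3). Hspa1b lies between 6.53 and 7.32 on sedentary and between 9.17 and 11.21 on exercised arrays.

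Hspa1b, Hsp90aa1, Hspb1, Bag3 and Cryab passed in wild type under all 25 alternatives. Hspa1a did too, also with no filter on dim genes, but its sedentary levels were dim. The count of 19 became 11 without sedentary wild type replicate 3, 12 without exercised wild type replicate 1, 11 without the 3 arrays of high Xist, and 10 with liver, adipocyte and B lymphocyte marker scores as covariates.

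In ERRa-null muscle 8 members rose and 0 fell after running, against 0.383% of tested genes called higher and 0.255% called lower (0.639% together), and all 8 were among the 19 that rose in wild type. Without Hspa1a 7 of 39 rose. The median difference was 0.21 log2, against −0.01 over all tested genes. On every array 20 members were higher and 1, Hspa2, lower than at rest, against 8.99% and 10% of tested genes. Hspa1b read 6.87, 6.73 and 7.32 on the sedentary ERRa-null arrays and 10.74, 9.57 and 9.17 after running. Hspa1a read 4.98, 4.73 and 5.10, then 7.83, 7.09 and 6.86. In both genes exercised replicate 1 was the highest of its group, and no exercised array overlapped the sedentary ones. Hspa1b rose by 2.86 ± 0.30 (adjusted p = 0.00102). For Hspa1a, again dim at rest, the difference was 2.32 ± 0.21, with adjusted p = 0.000553 when no filter on dim genes was applied.

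The other risers in ERRa-null muscle were from several families. Hspb1 read 8.42, 8.63 and 8.76 at rest and 10.05, 9.62 and 9.65 after running, all higher, and rose by 1.17 ± 0.12 (adjusted p = 0.00102). Serpinh1 read 7.68, 7.90 and 7.60, then 8.43, 8.46 and 8.59, and rose by 0.77 ± 0.13 (adjusted p = 0.0255), against 0.78 in wild type. Hsp90aa1 read 7.37, 7.02 and 7.11, then 8.03, 7.92 and 7.72, all higher after running, and rose by 0.72 ± 0.14 (adjusted p = 0.0396). Bag3, Cryab and Hspa8 rose by 0.46 ± 0.07, 0.41 ± 0.07 and 0.37 ± 0.06. Hsph1 (0.54, adjusted p = 0.0876), Dnaja4 (0.59, adjusted p = 0.0788) and Dnajb1 (0.62, adjusted p = 0.204) did not pass. Each of the 8 lost its call under at least 1 of the 25 alternatives, and the count became 3 without exercised replicate 2, 4 without exercised replicate 3, 3 without the arrays of high Xist, and 1 with the marker scores as covariates.

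Averaged over genotypes, 23 members rose and 1 fell, against 3.14% and 3.43% of tested genes. Without Hspa1a, dim at rest, 22 of 39 rose and 1 fell, and its place among the calls below is a description. The 5 beyond those of wild type were the J-domain protein Dnajb2 (0.35 ± 0.09), the co-chaperones Cacybp (0.27 ± 0.07) and Fkbp4 (0.20 ± 0.05), the chaperonin subunit Cct8 (0.20 ± 0.05) and Hspa2. Hspa2, an Hsp70 best known from the testis, read 6.41, 6.56 and 6.55 in sedentary and 6.15, 6.25 and 6.23 in exercised wild type, and 6.82, 6.83 and 7.21 in sedentary and 6.71, 6.47 and 6.63 in exercised ERRa-null muscle. Every exercised array lay below the sedentary arrays of its genotype, and Hspa2 fell by 0.32 ± 0.08 (adjusted p = 0.032). That call held in 9 of 23 alternatives and was lost, among others, with no filter on dim genes, with median centring and without the arrays of high Xist, at −0.43 to −0.26 over all of them. Cryab, Dnajb1, Hsp90aa1, Hspa1a, Hspa1b, Hspa8, Hspb1 and Serpinh1 passed under all 23 alternatives, while the count of 24 became 11 without the arrays of high Xist, 15 with high Xist as a covariate and 9 with the marker scores as covariates.

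**Figure D3:**
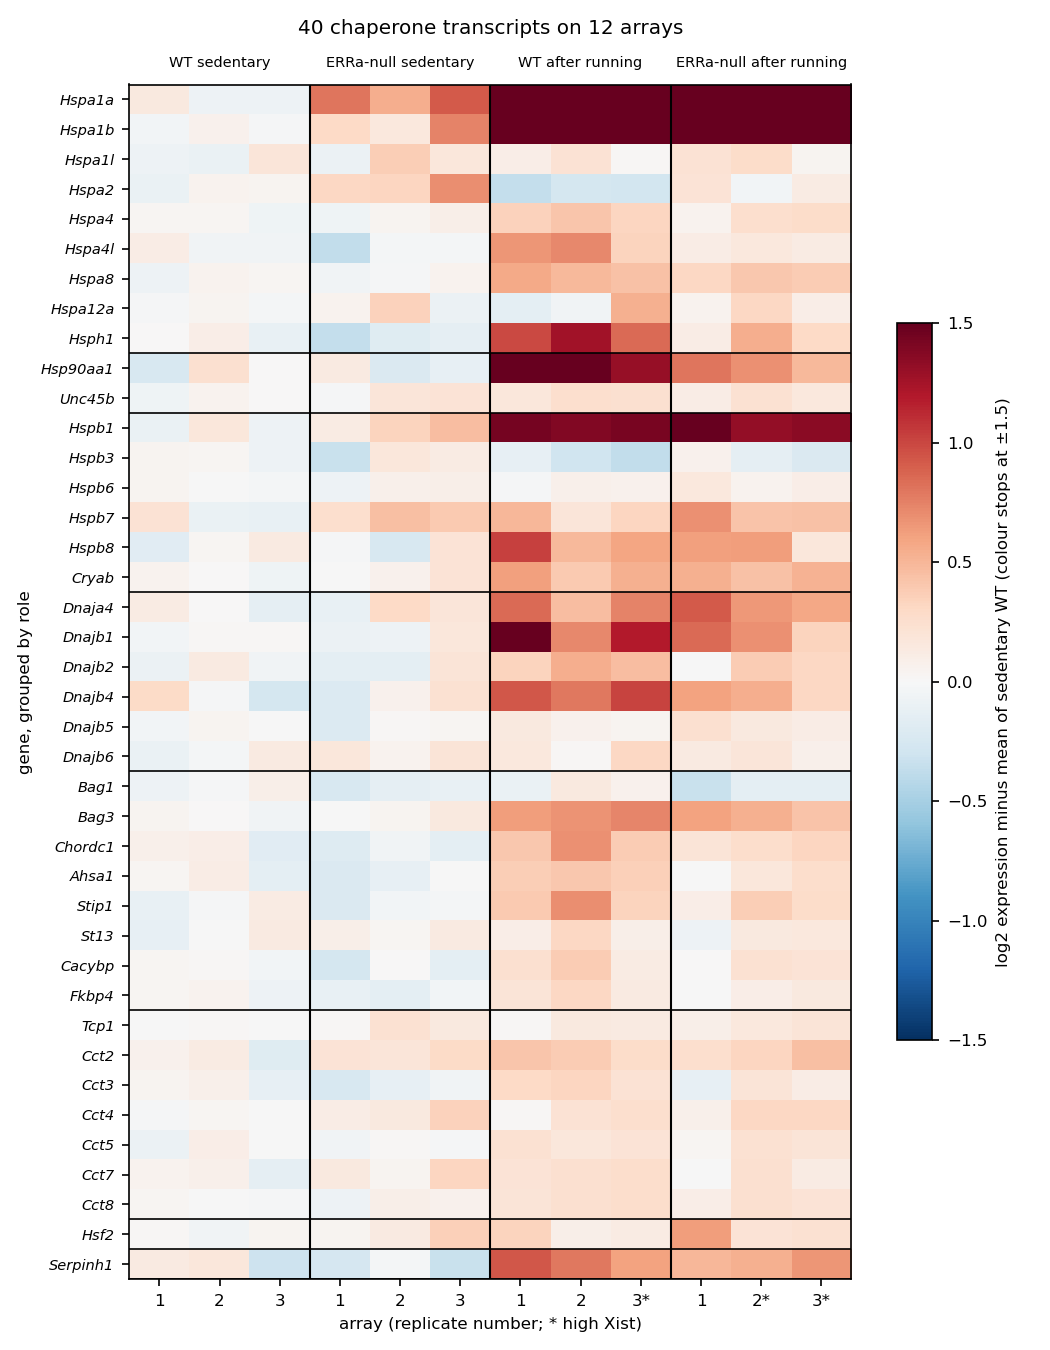
Log2 expression minus the mean of sedentary wild type for 40 members (rows, by role) on 12 arrays (columns, by group and replicate); red is higher, blue lower, the colour stops at ±1.5, and a star marks high Xist. The exercised wild-type arrays hold the most red, and Hspa2 is the member called lower.

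Chaperones of other compartments were read from lists not restricted to the 43 genes. Of 16 tested endoplasmic reticulum chaperones, 5 rose in wild type after running, against 2.22% of all tested genes, with a median of 0.29. Among the 5, Hspa5 (BiP, the Hsp70 of that compartment) rose by 0.60 ± 0.09 and Dnajb9, its J-domain partner, by 0.73 ± 0.11. Creld2 rose by 0.57 ± 0.09 and Hsp90b1 by 0.35 ± 0.08. At an unadjusted p under 0.05 there were 9 of 16, against 16.1% of all tested genes. In ERRa-null muscle 0 of the 16 passed with limma, and 3 reached an unadjusted p under 0.05, against 13.1% of all tested genes. Averaged over genotypes 5 of the 16 rose, against 3.14% of all tested genes. Of 37 other cytosolic chaperones, 1 rose in wild type, the glucocorticoid-inducible Hsp90 co-chaperone Fkbp5 (0.79 ± 0.14), and 1 fell, Bag4 (−0.36 ± 0.08), with a median of 0.06. Of 8 mitochondrial chaperones and 5 prefoldin subunits 0 passed in either genotype with limma; of the mitochondrial ones 2 in wild type and 1 in ERRa-null reached an unadjusted p under 0.05, and of the prefoldins 0, against the same 16.1% and 13.1%.

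At rest no member differed between genotypes by limma's adjusted p (0 of 40, against 0.0526% of tested genes called higher and 0.0301% lower, 0.0827% together), and 6 had an unadjusted p under 0.05, against 8.22% of tested genes. Hspa2 differed by 0.44 ± 0.11 (adjusted p = 0.226) and Hspa1b by 0.40 ± 0.30 (adjusted p = 0.796), each higher on every ERRa-null array than on any wild-type array. Hspa1a also read higher on every ERRa-null array, but all 6 values lay under the dim threshold and its difference is not ranked. In all 8 members lay higher and 2, Hsph1 and Bag1, lower on every ERRa-null array, against 6.91% and 6.53% of tested genes. Without Hspa1a 7 of 39 lay higher, and 5 had an unadjusted p under 0.05. The median difference of the members was 0.03, and 23 of 40 lay above 0.

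After running 2 members were lower in ERRa-null than in wild-type muscle, Hsp90aa1 and Hsph1, and 0 were higher, against 0.286% and 0.0902% of tested genes. The exercised values of Hsp90aa1 (wild type 8.74, 8.81 and 8.54; ERRa-null 8.03, 7.92 and 7.72) did not overlap, and the difference was −0.81 ± 0.14 (adjusted p = 0.0358). Hsph1 read 9.31, 9.58 and 9.17 in wild type and 8.43, 8.86 and 8.61 in ERRa-null muscle, again without overlap, a difference of −0.72 ± 0.13 (adjusted p = 0.0398). For Hspa1b the difference was −1.20 ± 0.30 (adjusted p = 0.124) and for Hspa1a −0.999 ± 0.21 (adjusted p = 0.0697), with every ERRa-null array below every wild-type array. The titles number the arrays but state no pairing. Deviations of exercised arrays with the same replicate number correlated at 0.312, 0.207 and 0.174. For exercise in wild type the correlations were 0.269, 0.063 and 0.157. With an assumed replicate block on only the arrays compared, 3 members passed with limma: Hsp90aa1 (adjusted p = 0.0171), Hsph1 (adjusted p = 0.0304) and Hspa1a (adjusted p = 0.0413). With the replicate block over all arrays Hsph1 alone passed with limma (adjusted p = 0.0422), and Hsp90aa1 (0.0519) and Hspa1a (0.0516) did not. Hspa1a was in these tests only through its exercised groups, so its p-values here are descriptions.

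Across all members 28 of 40 (70%) lay below 0 in that comparison, against 49.6% of all tested genes, with a median of −0.11, and 15 had an unadjusted p under 0.05, against 10.4%. In the other lists 15 of 16 endoplasmic reticulum, 8 of 8 mitochondrial and 24 of 37 other cytosolic chaperones lay below 0, and 1 of 5 prefoldin subunits. On every array 13 members were lower and 1, Hspa2, higher, against 9.31% and 6.64%. Without Hspa1a 27 of 39 members lay below 0, 14 had an unadjusted p under 0.05, and 12 were lower on every array. The 8 BAG proteins and co-chaperones were all below 0, at −0.24 to −0.09, and 0 passed with limma, with 4 at an unadjusted p under 0.05. At rest 6 of these 8 already lay below 0, with values from −0.16 to 0.09. Hspb1 (0.06 ± 0.12) and Cryab (−0.02 ± 0.07) differed little, while Dnajb1 and Dnajb4 lay at −0.56 and −0.43 without passing. The 2 calls were lost without the arrays of high Xist: Hsp90aa1 was then −0.74 (adjusted p = 0.457), Hsph1 −1.01 (adjusted p = 0.132), Hspa1a −0.44 (adjusted p = 0.685) and Hspa1b −0.28 (adjusted p = 0.843), with 1 exercised ERRa-null array left. No member passed when any 1 exercised wild-type array, exercised ERRa-null replicate 3 or sedentary ERRa-null replicate 3 was left out, and 1 passed without exercised ERRa-null replicate 2, sedentary wild type replicate 1 or 2, or sedentary ERRa-null replicate 2. Without exercised ERRa-null replicate 1 both calls were lost (Hsp90aa1 adjusted p = 0.0605, Hsph1 adjusted p = 0.128). Hspa1b (−1.66, adjusted p = 0.00575) passed with limma instead. So did Hspa1a (−1.28, adjusted p = 0.0133), again as a description, since its exercised groups alone brought it into the test.

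**Figure D4:**
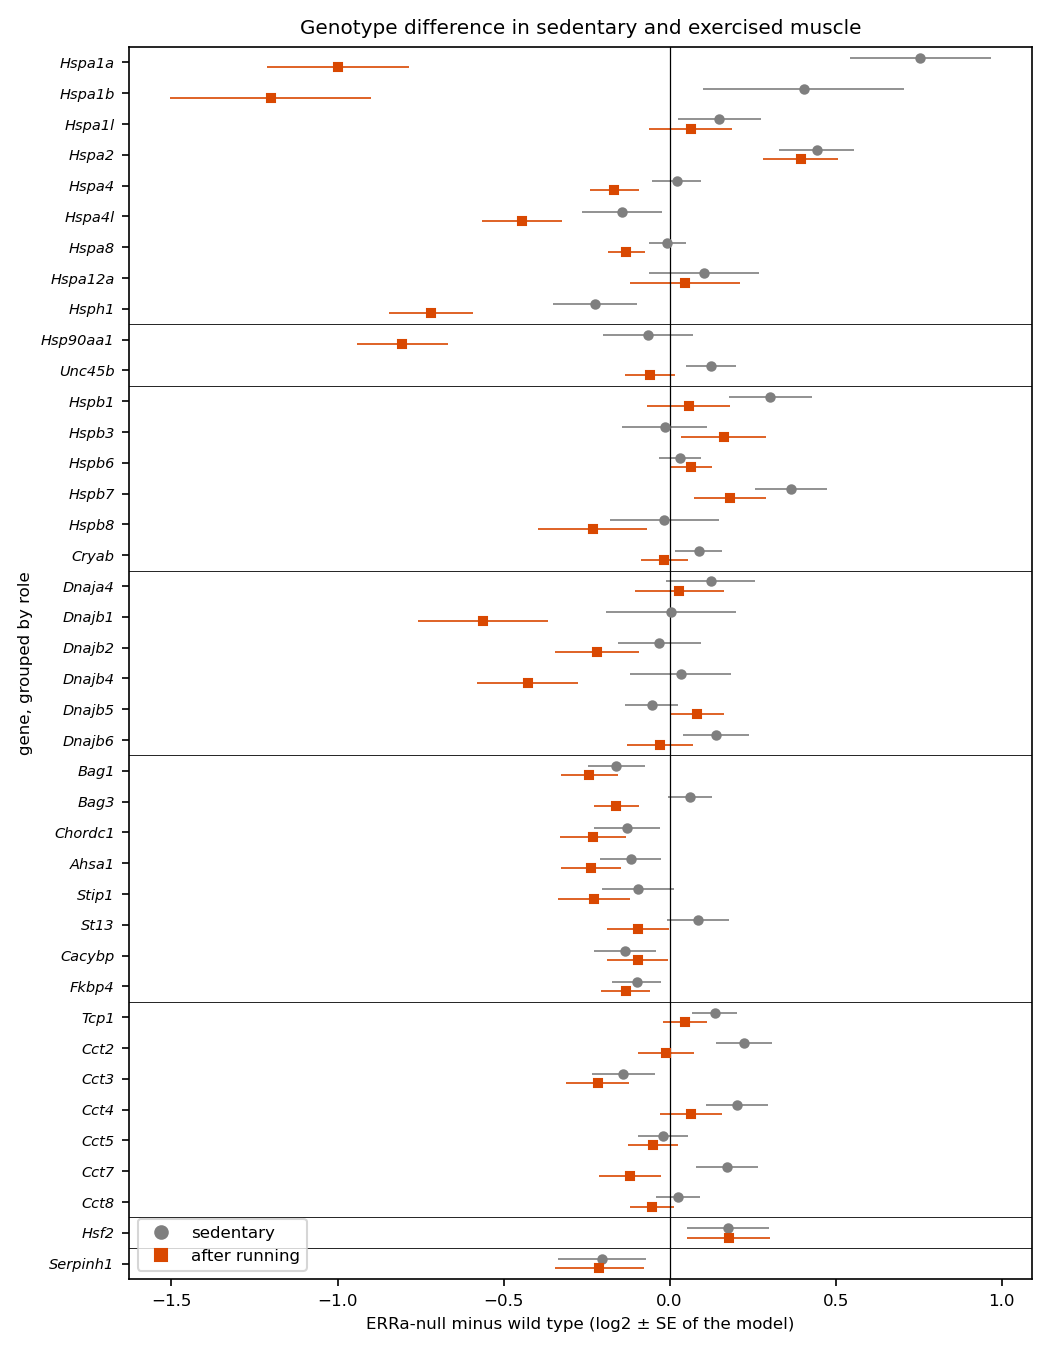
ERRa-null minus wild type (log2, horizontal axis, with the SE of the model) for 40 members grouped by role; grey circles are sedentary and orange squares exercised muscle. Hspa1a and Hspa1b lie above 0 at rest and below 0 after running.

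The interaction, the exercise difference in ERRa-null minus that in wild type, passed for 0 of 40 members with limma, against 0.00751% of tested genes. Of the members 6 had an unadjusted p under 0.05, against 5.12%. On simulated data the fit recovered 24% of interactions of 0.5 log2 and 58% of those of 1 log2, so 0 calls do not show absence. The sign of the interaction was negative for 35 of 40 members (87.5%), against 50.6% of all tested genes. It was also negative for 16 of 16 endoplasmic reticulum, 8 of 8 mitochondrial and 23 of 37 other cytosolic chaperones, and for 4 of 5 prefoldin subunits. A negative sign was thus not particular to the listed members. Of the 16 endoplasmic reticulum chaperones, 0 passed the interaction with limma, and 6 had an unadjusted p under 0.05. The 19 members that rose in wild type all had a smaller difference in ERRa-null, but they were selected on their wild-type values. Hspa1a was at −1.75 ± 0.30 (adjusted p = 0.308), Hspa1b at −1.60 ± 0.43 (adjusted p = 0.643), Hsp90aa1 at −0.74 ± 0.19 (adjusted p = 0.616) and Hsph1 at −0.49 ± 0.18 (adjusted p = 0.948), while Serpinh1 was at −0.01 ± 0.19. The value of Hspa1a rests on its dim sedentary levels. Without that gene 34 of 39 members had a negative sign, and 5 had an unadjusted p under 0.05. Without exercised ERRa-null replicate 1 Hspa1a was at −2.04 (adjusted p = 0.0077) and Hspa1b at −2.06 (adjusted p = 0.0121), and without the arrays of high Xist they were at −1.20 and −0.68 (adjusted p = 0.534 and 0.996). Over the 40 members the exercise differences of the genotypes had a Pearson r of 0.98 and a Spearman rho of 0.911, and over the 38 without Hspa1a and Hspa1b 0.915 and 0.897; genes are not independent replicates, and the values share each genotype's arrays.

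**Figure D5:**
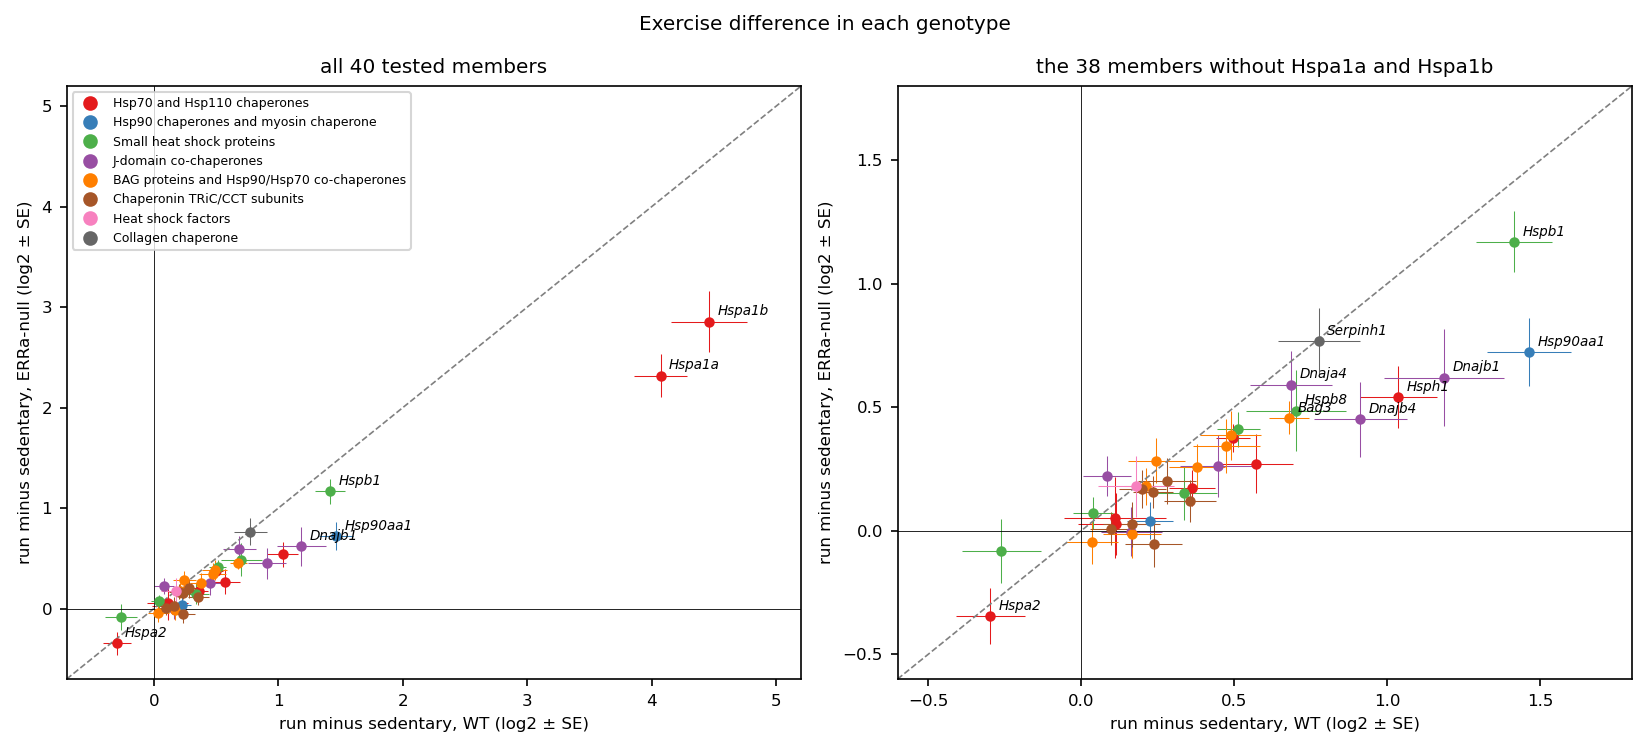
Exercise difference in wild type (horizontal) against ERRa-null (vertical), both log2 with the SE of the model, for 40 members coloured by role (left) and 38 without Hspa1a and Hspa1b (right); the dashed line marks equal differences. The 19 members that rose in wild type lie below the line.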

How the data were processed

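The deposited values were used as log2 expression per probeset, made by the authors with RMA; the submitters' processing notes also name Transcriptome Analysis Console and Affymetrix Expression Console. RMA corrects background and forces the arrays onto a common distribution, so differences are relative to the bulk of transcripts. The notes give no versions, and the build is not stated in them. Of 41345 probesets, 23521 had 1 gene symbol (1814 several, 16010 none), 23328 of which matched RefSeq. The probeset with the highest mean stood for a gene, leaving 22180 genes. The 40% with the lowest mean, under log2 5.32, were not tested, so 13308 were. Array medians were 5.15 to 5.26 and pairwise correlations 0.97 to 0.987; arrays have no read depth, and their number limits the precision.

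limma 3.58.1 (R 4.3.3) fitted 4 group means to 12 arrays (8 residual degrees of freedom), with eBayes and an intensity trend; tests were two-sided, and genes were called at an adjusted p under 0.05. Groups of 3 are biological replicates per the labels. The fit was tested on simulated data. The members and lists were chosen with earlier results of these data known. Any member may be named; of other lists, at most 4 called genes per comparison. The titles state no pairing of arrays, so replicate blocks were tried only as alternatives. Deviations correlated positively at every replicate number for genotype after exercise and for exercise in wild type, and with mixed signs in the other pairs of groups. Up to 25 alternatives per comparison were tried. Sequences are RefSeq promoter windows; letters were searched on both strands.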

Additional observations from a re-analysis of the deposited data

Results flagged for a closer look

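Hspa1a and Hspa1b, the near-identical inducible Hsp70 genes, had a sign that turned between states: every ERRa-null array lay above every wild-type array at rest and below every wild-type array after running. Of all tested genes, 6.91% lay above in this way at rest and 9.31% lay below after running. The share of all tested genes that did both was not counted, so how unusual the turn is cannot be judged. Neither gene was called for genotype in either state. As near-copies whose probesets may report each other's transcripts, they may not be independent cases. For Hspa1a all 6 sedentary values lay under the dim threshold, and the gene was tested only through its exercised groups, so at rest the pattern compares dim values. The exercise difference in ERRa-null minus that in wild type was −1.75 log2 for Hspa1a and −1.60 for Hspa1b, with adjusted p = 0.308 and 0.643 from limma. Exercised ERRa-null replicate 1, without high Xist, read 7.83 for Hspa1a and 10.74 for Hspa1b, and replicates 2 and 3, with high Xist, read 7.09 and 6.86 for Hspa1a and 9.57 and 9.17 for Hspa1b. The part of these arrays in the difference was not tested beyond the values without them given above.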

How the results depend on the processing

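Of 53 called values, over 1277 settings in all, 1000 kept their call, 277 lost it and 0 changed sign. Of the 109 values followed, 0 changed sign; 131 other values, none called, changed sign in 167 of 3185 settings, at a size of at most 0.25 log2. Members called moved as follows, and the cause was not tested. For exercise in wild type, 19 became 11 with only the arrays compared, 8 with the replicate block on those arrays, 11 without the arrays of high Xist, 10 with tissue scores, and 11 to 19 leaving out 1 array. For exercise in ERRa-null, 8 became 5 without the intensity trend, 5 with only the arrays compared, 0 with the replicate block on those, 3 without the arrays of high Xist, 3 with high Xist as a covariate, 1 with tissue scores, and 3 to 8 leaving out 1 array. Averaged over genotypes, 24 became 11, 15 and 9 without the arrays of high Xist, with high Xist as a covariate and with tissue scores, and 18 to 26 leaving out 1 array. For genotype after exercise, 2 became 0 without a filter, without the trend, with only the arrays compared, without the arrays of high Xist and with high Xist as a covariate, 1 with the replicate block over all arrays, with quantile normalization repeated and with tissue scores, and 0 to 2 leaving out 1 array. For genotype at rest it was 0 to 0, and for the interaction 0 to 2, leaving out 1 array. Leaving out 1 array left groups of 2, and without the arrays of high Xist the exercised ERRa-null group held 1 array, assumed to vary like the others. No pairing is stated in the titles, so the replicate block is an assumption. Precision is set by 3 arrays per group.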
